A study of Mus musculus with 11 samples.

Results

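Asparagine synthetase (Asns) and 9 genes grouped with it as the transcription factor ATF4 and targets of ATF4 (Atf4, Ddit3, Trib3, Chac1, Psat1, Phgdh, Shmt2, Mthfd2 and Slc7a5) were followed in CD8+ Tregs of young and middle-aged mice. The genes were found by name in the count table, where the 10 genes stand on 11 of 54532 rows, because Ddit3 is listed on 2 identifiers. They were chosen by the age difference of Asns in these same libraries and by their known link to it, so the age differences of the 10 genes are given as a description, with no p-value, and nothing is read from how many pass a threshold. The cells were sorted from spleen as CD8+CD44+Ly49+CD122+, and every mouse was wild type. By the labels, young mice were 2 to 3 months old and the older mice 10 to 12 months old. The older mice are called old in the labels and middle-aged by the study, which gives 3 and 12 months for the sequenced cells. There were 3 libraries of young males, 3 of young females, 2 of middle-aged males and 3 of middle-aged females. Each library is described as a biologically separate replicate. No genotype, treatment or transgene separated the groups. Young male 1 and young female 1 were the shallowest libraries, at 6135736 and 8421396 counts, and middle-aged female 2 stood apart by high levels of myeloid and plasma cell markers. For the 10 genes, the larger moves of a fold change that these libraries cause are also given. For other pathway genes no fold changes without these libraries are given.

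ATF4 is the main transcription factor of the integrated stress response. Amino acid shortage, endoplasmic reticulum stress, viral RNA or heme shortage each activate a kinase that phosphorylates eIF2 alpha, which lowers protein synthesis in general but raises the translation of Atf4 mRNA. ATF4 then binds C/EBP-ATF response elements and turns on genes for amino acid synthesis and uptake, for charging of tRNA and, in prolonged stress, for cell death. The counts measure mRNA, so they do not measure how much ATF4 protein was made. In activated T cells several of these genes are known to serve growth as well.

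The sequences below are the places where an ATF4 response element was found near the start of one of these genes, and they are printed because this is the element through which ATF4 is known to act. RefSeq promoter windows of the build GRCm38.p6, from 250 bases before to 50 bases after a gene's start, were available for 9 of the 10 genes. The letters searched on both strands were TGATGNAA (the C/EBP-ATF response element), TGATGAAAC (nutrient-sensing response element 1 of Asns, which contains the former) and GTTACA (nutrient-sensing response element 2). Capitals mark the matches, and each run reads 5′ to 3′ on the strand of its gene.
Asns, chr6:7693205-7693234, minus strand: caTGATGAAACttcccgcacgcGTTACAga
Chac1, chr2:119351038-119351067, plus strand: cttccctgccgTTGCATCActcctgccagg
Trib3, chr2:152344028-152344057, minus strand: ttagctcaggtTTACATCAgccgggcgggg
In Asns both nutrient-sensing elements lie on the strand of the gene, with first bases at positions -23 and -3 from the RefSeq start, inside an exon that GENCODE M21 annotates as untranslated. In Chac1 and Trib3 the match reads on the opposite strand, at positions -193 and 14, outside the exons of that annotation. The response element was in the windows of 3 of these 9 genes and in 3.97% of all 32851 windows, while nutrient-sensing elements 1 and 2 were in 0.247% and 8.25% of windows. The 2 nutrient-sensing elements together on 1 strand were in 0.0122% of windows, which is 4 windows. The letters of these 2 elements are known from Asns itself, and its response element match lies inside element 1. Finding them in Asns was therefore fixed beforehand, and nothing is read from how rare they are. The genes were grouped by their known link to ATF4, so nothing is read from the 3 of 9 genes either. These matches are letters in a window and not measured binding.

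Asns, which makes asparagine from aspartate and glutamine, was low in young CD8+ Tregs, at no more than 2.07 CPM, and at 11.1 CPM or more in middle-aged ones. Values are in CPM, which are counts scaled to the size of each library with TMM factors. Asns stood at 0.361, 0.422 and 0.906 CPM in young males 1 to 3 and at 0.278, 2.07 and 1.38 CPM in young females 1 to 3. It stood at 19.9 and 11.1 CPM in middle-aged males 1 and 2 and at 12.4, 21.7 and 12.5 CPM in middle-aged females 1 to 3. The groups did not overlap, and the lowest middle-aged value was 5.36 times the highest young value. The mean was 0.902 ± 0.707 CPM in young (SD, n = 6) and 15.5 ± 4.90 CPM in middle-aged libraries (SD, n = 5), a ratio of 17.2. The edgeR log2 fold change, middle-aged over young with sex in the model, was 4.08 (SE 0.56), at the 99.8th percentile of the 13129 genes tested.

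These levels rest on 2 to 52 counts of Asns in the young libraries and on 188 to 520 counts in the middle-aged ones. In young male 1 and young female 1 the 2 counts lie under the 3 counts taken as the limit that a count of 0 allows, which was 0.119 to 0.542 CPM by library. Asns passed the filter on low counts through its middle-aged libraries. Without young male 1 and young female 1 the young mean was 1.19 CPM (n = 4), and without middle-aged female 2, the highest library, the middle-aged mean was 14 CPM (n = 4). In a bulk sample, fewer cells of a type and less RNA per cell cannot be told apart, so a level of 0.902 CPM may come from a few cells or from all of them.

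The gene lies on chromosome 6 at 7675169 to 7693254, minus strand, in GRCm38 (ENSMUSG00000029752), and the table lists 15 other genes within 500000 bases of it. Of these, 12 had 0 counts in every library, among them Tac1 and Col28a1. C1galt1, an O-glycosylation enzyme 151588 bases away, was at 28.9 ± 10.8 CPM in young (SD, n = 6) and 30.7 ± 8.35 CPM in middle-aged libraries (SD, n = 5). Its log2 fold change was 0.06 (SE 0.33, edgeR adjusted p = 1.00). The processed pseudogene Gm9825 had a log2 fold change of 0.33 (SE 0.48, edgeR adjusted p = 1.00), and Gm43961 was too low to test. No neighbour was called for age.

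**Figure D1:**
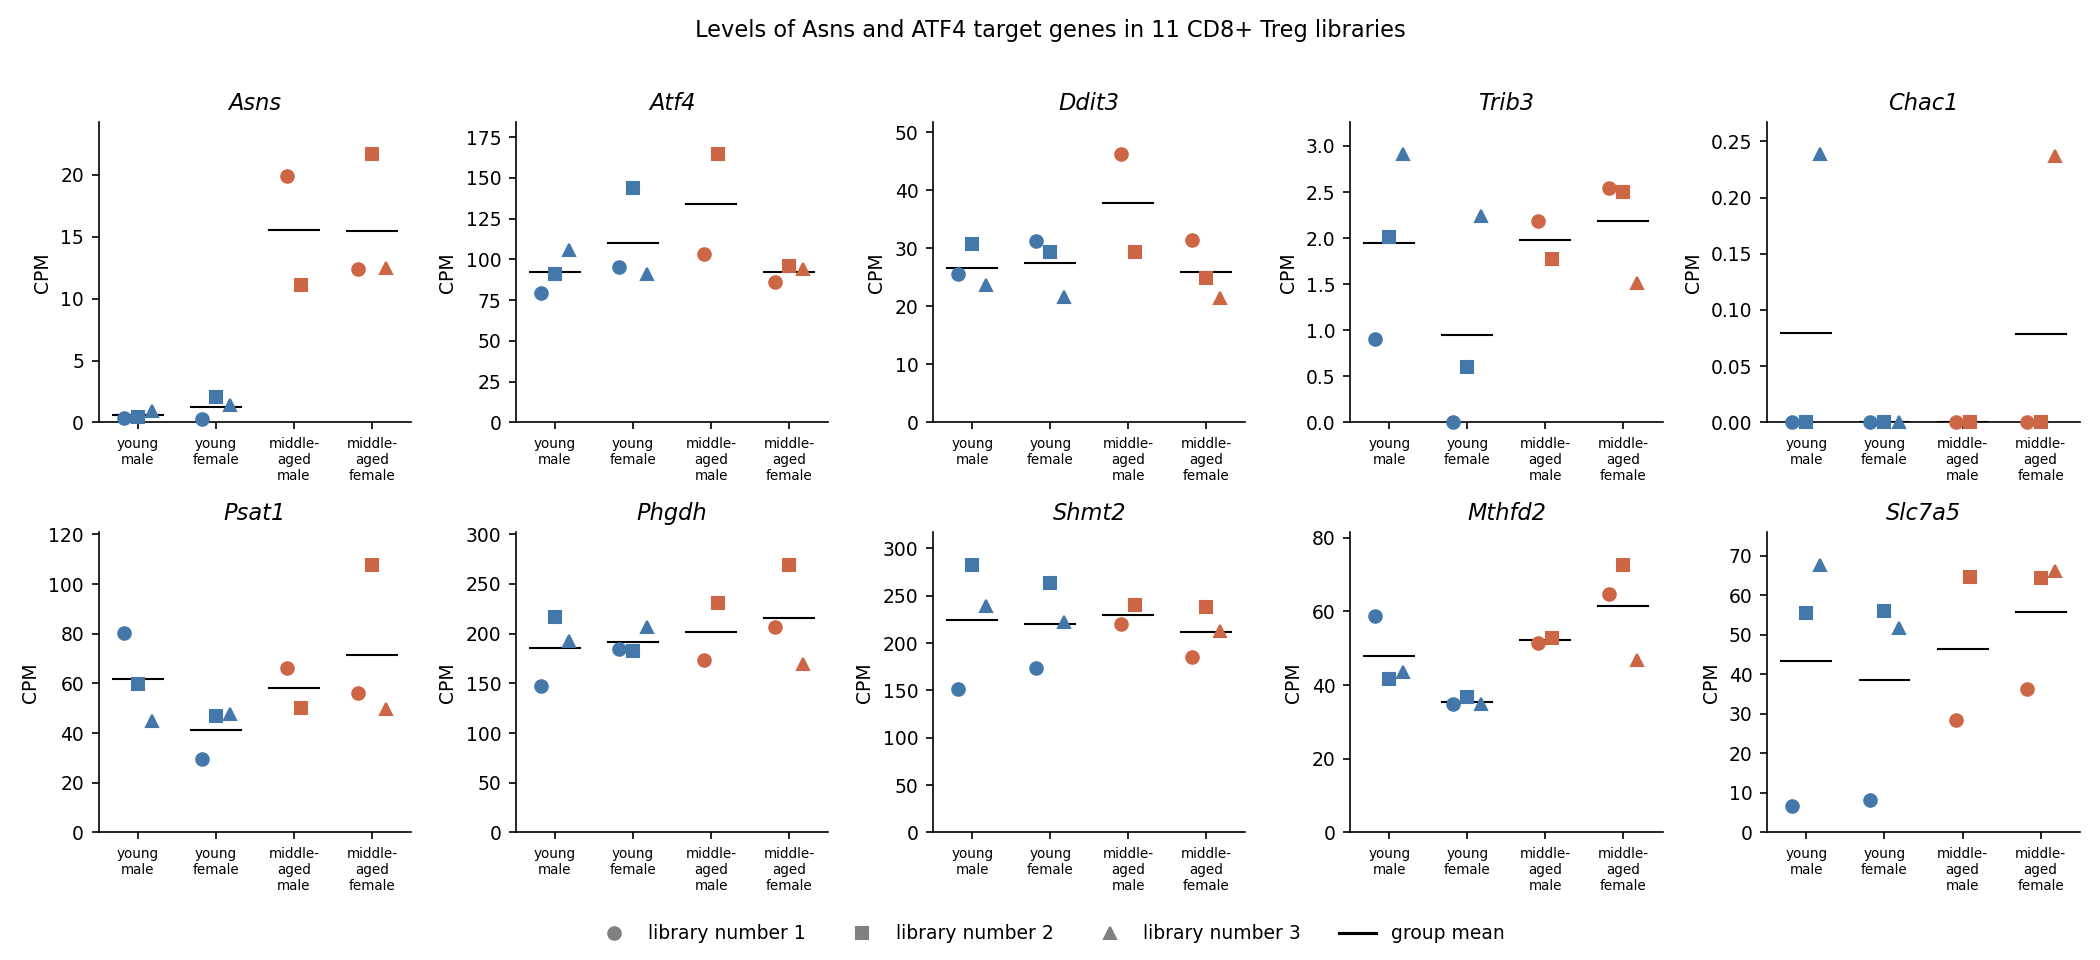
Levels in CPM (linear axes from 0) of the 10 genes in each of the 11 libraries, with young libraries in blue and middle-aged libraries in orange. Symbols give the library number, and lines the group means. Asns is at most 2.07 CPM in young and at least 11.1 CPM in middle-aged libraries, while the young and middle-aged points of the other genes overlap.

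Atf4 mRNA overlapped between the ages. It was at 79.3, 91.2 and 106 CPM in young males, 95.5, 144 and 91.1 CPM in young females, 104 and 164 CPM in middle-aged males, and 86.3, 96.1 and 94.2 CPM in middle-aged females. The highest library was middle-aged male 2 and the next was young female 2, while the 3 middle-aged females lay within the range of the young libraries. The means were 101 ± 22.5 CPM (SD, n = 6) and 109 ± 31.6 CPM (SD, n = 5), and the log2 fold change was 0.10 (SE 0.24). It was -0.11 without middle-aged male 2 and 0.26 without young female 2, so its sign turned on 1 library. Atf4 lies on chromosome 15 at 80255184 to 80257541, plus strand (ENSMUSG00000042406).

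Ddit3, which encodes the stress factor CHOP that acts with and downstream of ATF4, also overlapped. It was at 25.7, 30.7 and 23.7 CPM in young males, 31.2, 29.4 and 21.7 CPM in young females, 46.2 and 29.4 CPM in middle-aged males, and 31.4, 25.0 and 21.4 CPM in middle-aged females. Middle-aged male 1 stood above the others, and the lowest library of all was a middle-aged one. The log2 fold change was 0.18 (SE 0.25), and -0.0049 without middle-aged male 1. The values are those of ENSMUSG00000025408 on chromosome 10, and the other identifier with this name, ENSMUSG00000116429, had 0 counts in all libraries.

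Trib3 and Chac1, which rise sharply in many cell types when ATF4 is active, were low at both ages. Trib3, a pseudokinase that restrains ATF4 and CHOP, was at 0.903, 2.02 and 2.91 CPM in young males, 0, 0.596 and 2.24 CPM in young females, 2.18 and 1.77 CPM in middle-aged males, and 2.54, 2.50 and 1.51 CPM in middle-aged females. Its highest library was young male 3, and the log2 fold change was 0.66 with an SE of 0.81. Single libraries moved it, to 0.32 without young female 1 and 1.30 without young female 3, and it was 0.18 without young male 1 and young female 1. Chac1, which degrades glutathione, had 0 counts in 9 of the 11 libraries. The 2 others were young male 3 at 0.238 CPM and middle-aged female 3 at 0.237 CPM, with 5 counts each. It was too low to be tested and has no fold change.

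The serine synthesis genes were well expressed at both ages. Phgdh, the entry enzyme of the pathway from glycolysis, was at 148, 217 and 193 CPM in young males, 185, 182 and 207 CPM in young females, 174 and 231 CPM in middle-aged males, and 207, 270 and 170 CPM in middle-aged females. Its log2 fold change was 0.15 (SE 0.20), and its lowest middle-aged library lay below the young mean of 189 ± 24 CPM (SD, n = 6). Psat1, the aminotransferase that follows it, was at 80.2, 59.8 and 44.9 CPM in young males, 29.7, 46.8 and 47.8 CPM in young females, 66.2 and 49.9 CPM in middle-aged males, and 56.3, 108 and 49.6 CPM in middle-aged females. Its log2 fold change was 0.40 (SE 0.30), with middle-aged female 2 far above the rest and young female 1 the lowest. Without middle-aged female 2 the log2 fold change was 0.14 for Psat1 and 0.05 for Phgdh.

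The mitochondrial one-carbon enzymes differed a little from each other. Shmt2, which splits serine into glycine and a one-carbon unit, was at 151, 283 and 240 CPM in young males, 174, 263 and 222 CPM in young females, 219.7 and 240 CPM in middle-aged males, and 185, 238 and 213 CPM in middle-aged females. All middle-aged libraries lay inside the young range, and the log2 fold change was -0.01 (SE 0.21). Mthfd2, which oxidizes the folate carrying that unit, was at 58.7, 41.8 and 43.5 CPM in young males, 35, 36.8 and 34.8 CPM in young females, 51.5 and 52.8 CPM in middle-aged males, and 64.6, 72.7 and 46.8 CPM in middle-aged females. All 5 middle-aged libraries lay above the young median, but young male 1 lay above 3 of them. Its means were 41.8 ± 9.05 CPM (SD, n = 6) and 57.7 ± 10.7 CPM (SD, n = 5), and its log2 fold change was 0.50 (SE 0.22). In males alone it was 0.12 and in females alone 0.80.

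Slc7a5, the light chain of the LAT1 transporter for large neutral amino acids, varied widely between libraries of the same age. It was at 6.68, 55.5 and 67.7 CPM in young males, 8.19, 56.0 and 51.8 CPM in young females, 28.5 and 64.5 CPM in middle-aged males, and 36.2, 64.4 and 66.2 CPM in middle-aged females. The libraries numbered 1 were the lowest of each group. The log2 fold change with age was 0.33 (SE 0.58), and it was -0.17 when the 2 libraries with under 10000000 counts, young male 1 and young female 1, were left out. It was 0.87 with the replicate number as a block across sexes and 0.95 with the block within sex, so its size depended on how the library number was treated. Slc3a2, the heavy chain that pairs with it, had young and middle-aged means of 198 and 240 CPM, with a log2 fold change of 0.30 (SE 0.22, edgeR adjusted p = 1.00).

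Across the 9 genes that could be tested, 8 log2 fold changes were positive and 1 negative, with a median of 0.33, beside a median of 0.0028 and 50.4% positive over all 13129 genes. For 7 of the 9 the size was under 0.5. By edgeR's adjusted p 1 of the 9, Asns, was called for age, beside 0.0229% of all genes (3 genes, 2 higher and 1 lower). Since the age contrast chose the set, nothing is read from this count. The count was 0 in 10 of the 11 fits that left out 1 library, all except the one without young female 1, and in males alone and females alone, while the log2 fold change of Asns stayed between 3.59 and 4.72 over 22 alternative fits. Groups that do not overlap in CPM were seen for 1 of the 9, again Asns, beside 1.32% of all genes in either direction and 1.02% with the middle-aged libraries higher.

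**Figure D2:**
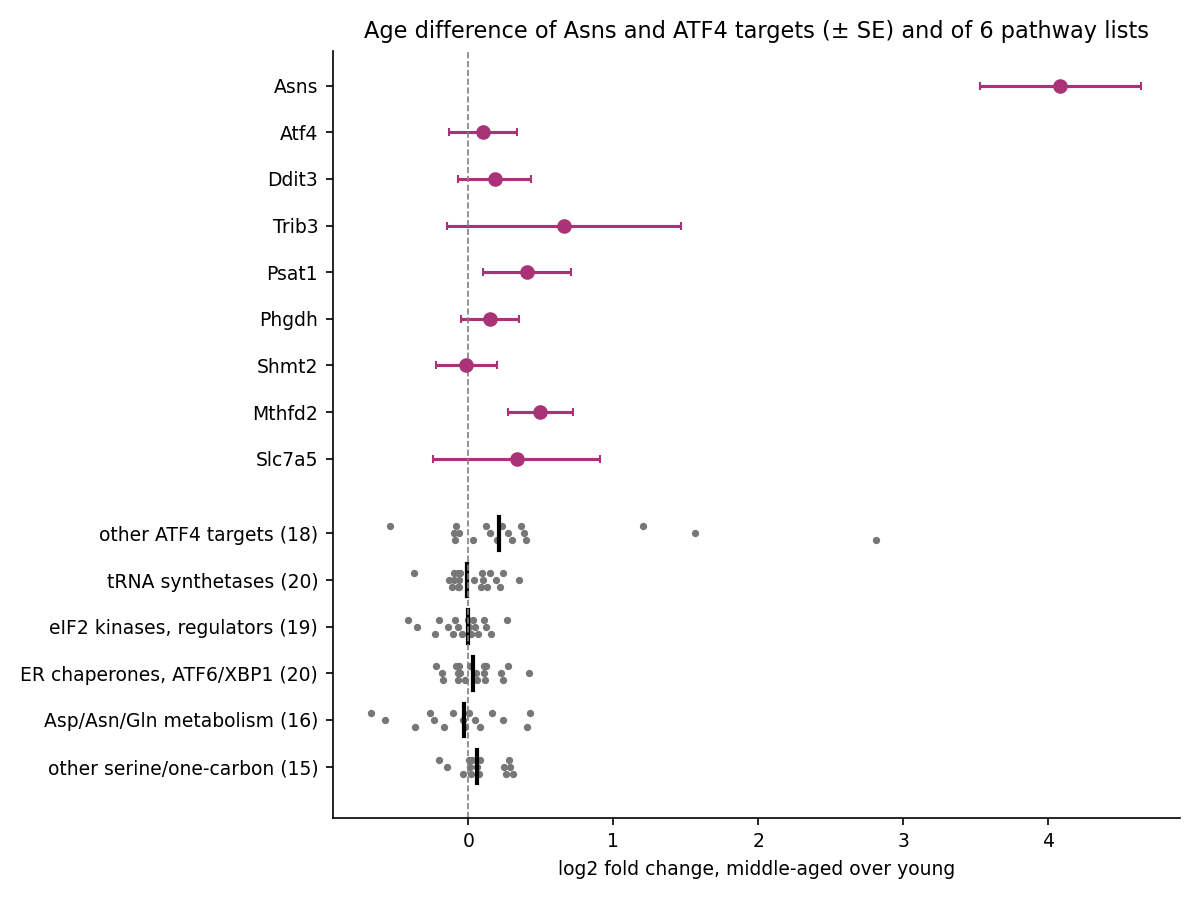
Log2 fold change, middle-aged over young, of the 9 genes tested (points with bars of 1 SE) and of the genes tested in 6 pathway lists (grey dots, number tested in parentheses, with the list's median as a black line). Asns is at 4.08, the other 8 genes lie between -0.01 and 0.66, and the list medians lie between -0.03 and 0.21.

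Per kilobase of transcript, which allows levels of different genes to be set side by side, Phgdh was highest at 79.8 ± 13.4 CPM per kb (mean and SD over 11 libraries). Shmt2 followed at 71.0 ± 12.5, within its spread of Phgdh, and Atf4 at 44.4 ± 11 CPM per kb. Ddit3 at 16.8 ± 4.03, Mthfd2 at 14.1 ± 3.58, Psat1 at 13.7 ± 4.93 and Slc7a5 at 12.4 ± 6.13 CPM per kb were within an SD of each neighbour in this order. Asns at 2.76 ± 3.02, Trib3 at 0.820 ± 0.426 and Chac1 at 0.0264 ± 0.0587 CPM per kb were the lowest. By age, Asns was at 0.330 CPM per kb in young and 5.67 CPM per kb in middle-aged libraries, so it stayed below the mean levels of the serine, one-carbon and transporter genes even where it was high.

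Sex and its interaction with age were not used to choose the genes and could be tested. None of the 9 genes was called for sex by edgeR, beside 0.0381% of all genes (5 genes), 0 had an unadjusted p under 0.05, and DESeq2 and limma voom also called 0. The log2 differences, female minus male, ranged from -0.51 for Trib3 to 0.57 for Asns (SE 0.52, adjusted p = 1.00). None of the 9 was called for the interaction either, beside 0% of all genes, and 0 had an unadjusted p under 0.05. DESeq2 and limma voom called 0 of the 9 as well.

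Asns had the same mean in middle-aged males, 15.5 CPM (n = 2), and middle-aged females, 15.5 CPM (n = 3), and was at 0.563 CPM in young males (n = 3) and 1.24 CPM in young females (n = 3). The difference in mean log2 CPM, middle-aged minus young, was 4.56 in males and 3.80 in females, and the edgeR interaction term, the log2 fold change of females minus that of males, was -1.13 (SE 1.03, adjusted p = 1.00). For Atf4 the difference in log2 CPM was 0.51 in males and -0.23 in females, with an interaction term of -0.79 (SE 0.44, edgeR adjusted p = 1.00). Group means of Atf4 were 92.2 CPM in young males, 134 CPM in middle-aged males, 110 CPM in young females and 92.2 CPM in middle-aged females. For Ddit3 the differences in log2 CPM were 0.47 in males and -0.08 in females. Psat1 and Mthfd2 leaned the other way. Psat1 had -0.06 in males and 0.73 in females (interaction term 0.87, SE 0.57, edgeR adjusted p = 1.00), and Mthfd2 had 0.14 in males and 0.76 in females (interaction term 0.67, SE 0.42, edgeR adjusted p = 1.00). None of these interaction terms passed the test, in which the middle-aged males are 2 libraries.

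The libraries also differ by the number they carry in the labels, and this was tested after the levels of Slc7a5 had been seen. Slc7a5 was at 6.68 to 36.2 CPM in the 4 libraries numbered 1 (mean 19.9 ± 14.7 CPM, SD), at 55.5 to 64.5 CPM in the 4 numbered 2 (60.1 ± 5.04 CPM, SD) and at 51.8 to 67.7 CPM in the 3 numbered 3 (61.9 ± 8.78 CPM, SD). In an edgeR model with sex, age and number it was higher by 1.82 on the log2 scale in number 2 and by 2.02 in number 3 than in number 1 (adjusted p = 0.0134). It was the only 1 of the 9 genes called for the number, and 26.3% of all genes were called in this test, so libraries of different number differ widely. Shmt2 was next (adjusted p = 0.0599), and Asns had an adjusted p of 0.820. Within the numbers, the difference in mean log2 CPM of Asns, middle-aged minus young, was 5.21, 3.86 and 3.35 for numbers 1, 2 and 3 (number 3 has 1 middle-aged library), and that of Slc7a5 was 2.10, 0.21 and 0.16. For Trib3 it was 2.88, 0.85 and -0.71. What the number stands for is not given in the sources used here.

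**Figure D3:**
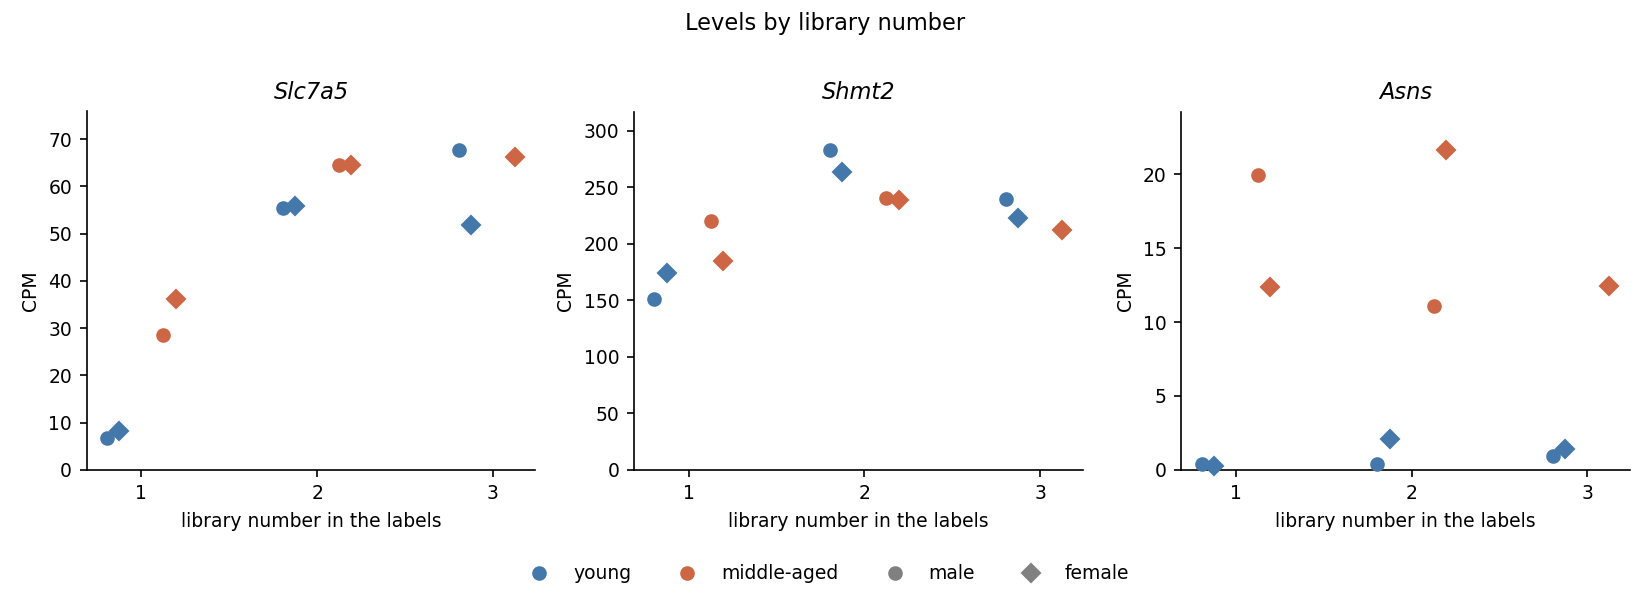
Levels in CPM of Slc7a5, Shmt2 and Asns in the 11 libraries, arranged by the number each carries in the labels, with young in blue, middle-aged in orange, males as circles and females as diamonds. The 4 libraries numbered 1 hold the lowest Slc7a5 values, 6.68 to 36.2 CPM, whereas Asns separates by age within each number.

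Other genes of the pathway were taken from 6 lists of textbook members, written with earlier results of these data known. Of the 126 genes listed, 108 were expressed enough to test. Adjusted over all 13129 genes, 0 of the 108 were called for age by edgeR, 2 (Cebpb and Nupr1) had an unadjusted p under 0.05, both higher in middle-aged libraries, beside 393 of all 13129 genes, and DESeq2 and limma voom also called 0. Positive log2 fold changes were 62 and negative ones 46, with a median of 0.03, and 105 of the 108 were under 1 in size. Middle-aged and young libraries did not overlap for 1 of the 108, Stc2, beside the 1.02% of all genes given above for this direction, so the count is close to the background. A gene that did not pass the test may still differ by less than these 11 libraries can show.

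Among 18 other ATF4 targets tested, of 30 listed, 13 had positive and 5 negative log2 fold changes, from -0.54 to 2.81 with a median of 0.21. Cebpb, a bZIP partner of ATF4, was at 19.6 ± 7.89 CPM in young (SD, n = 6) and 43.3 ± 24.7 CPM in middle-aged libraries (SD, n = 5), a log2 fold change of 1.20 (SE 0.40, edgeR adjusted p = 0.910). It was highest in middle-aged male 1, at 75.8 CPM, and middle-aged female 2, at 58.0 CPM. These libraries also had the highest summed myeloid markers, and the part of other cell types in Cebpb was not tested. Eif4ebp1, a brake on cap-dependent translation, had 0.40 (SE 0.41), Sesn2, an amino acid sensor upstream of mTORC1, had -0.54 (SE 0.43), and Cebpg, another bZIP partner, had -0.10 (SE 0.27), each with an edgeR adjusted p of 1.00. None of these 4 passed the test.

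Stc2 and Nupr1 were looked at after their values were seen. Stc2, a secreted glycoprotein, was at 0, 3.05 and 3.24 CPM in young males, 0.555, 3.78 and 1.61 CPM in young females, 6.51 and 8.31 CPM in middle-aged males and 4.55, 4.29 and 7.01 CPM in middle-aged females, so its groups did not overlap. Its log2 fold change was 1.56 (SE 0.75, edgeR adjusted p = 1.00). The lowest values, 0 and 0.555 CPM, were those of young male 1 and young female 1, the shallowest libraries. Nupr1, a stress-induced chromatin protein, was at 0 to 0.715 CPM in young and 0.370 to 4.67 CPM in middle-aged libraries, with a log2 fold change of 2.81 (SE 1.22, edgeR adjusted p = 1.00). Without middle-aged female 2 its middle-aged mean was 1.08 CPM in place of 1.79 CPM. Atf3, an ATF4-induced repressor, was too low to test and stood at 13.6 CPM in middle-aged female 2, but at no more than 0.688 CPM in any other library. Cth, Fgf21, Adm2 and Vldlr had 0 counts in all libraries.

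The 20 aminoacyl-tRNA synthetases of the cytosol, many of them ATF4 targets, split evenly with 10 positive and 10 negative log2 fold changes and a median of -0.0093. Aars had 0.35 (SE 0.44) and Eprs -0.37 (SE 0.26), the ends of the range. The 19 eIF2 kinases and regulators had 9 positive and 10 negative values. Among the kinases, Eif2ak1, which senses heme, had 0.16 (SE 0.48), and Eif2ak2, the kinase activated by viral RNA, had -0.04 (SE 0.40). Eif2ak3, the endoplasmic reticulum kinase PERK, had -0.35 (SE 0.66), and Eif2ak4, the amino acid sensor GCN2, had -0.41 (SE 0.91). The 20 endoplasmic reticulum chaperones and genes of the ATF6 and XBP1 arms had 11 positive and 9 negative values with a median of 0.03, and Pdia3, a disulfide isomerase, had 0.24 (SE 0.18). All of these had an edgeR adjusted p of 1.00.

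The genes next to Asns in metabolism did not move with it in a way the test could show. Of 16 genes of asparagine, aspartate and glutamine metabolism tested, 7 had positive and 9 negative log2 fold changes, with a median of -0.03. Asrgl1, which breaks asparagine down, had young and middle-aged means of 62.2 and 82.5 CPM (log2 fold change 0.42, SE 0.26). Glul, which makes glutamine, had -0.58 (SE 0.43), and Asnsd1, a gene that shares the synthetase domain, had -0.37 (SE 0.36). Of 15 other serine and folate genes, 12 were positive and 3 negative with a median of 0.06, from Mtr at -0.20 (SE 0.64) to Dld at 0.31 (SE 0.26). All had an edgeR adjusted p of 1.00.

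The genes whose pattern over the 11 libraries was most like that of Asns were none of the other 8 tested. Likeness was the root mean square difference of log2 CPM after centring each gene, and the nearest 5 of 13128 genes were Tnfsf4 (0.679), Gm10461 (0.702), Ripply3 (0.814), Alox8 (0.852) and Pawr (0.932). Tnfsf4, which encodes OX40 ligand, was at 0.302 ± 0.50 CPM in young (SD, n = 6) and 3.82 ± 1.33 CPM in middle-aged libraries (SD, n = 5). Alox8, a lipoxygenase, was at 0.552 ± 0.927 and 5.62 ± 2.23 CPM, and Pawr at 0.0844 ± 0.140 and 1.65 ± 0.575 CPM. Among the ATF4 group the nearest were Trib3, at rank 839, and Slc7a5, at rank 856, and the farthest was Shmt2, at rank 4253. Likeness to Asns was largely likeness in age difference, so genes with small age differences could hardly be among the nearest. The ranks are therefore a description and no test of whether the ATF4 group follows Asns. Young means of Tnfsf4, Gm10461, Ripply3 and Pawr lay under 0.542 CPM, the highest level that 3 counts stand for in any library. By Pearson correlation 3 of the 5 nearest genes were shared, namely Tnfsf4, Gm10461 and Ripply3.

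**Figure D4:**
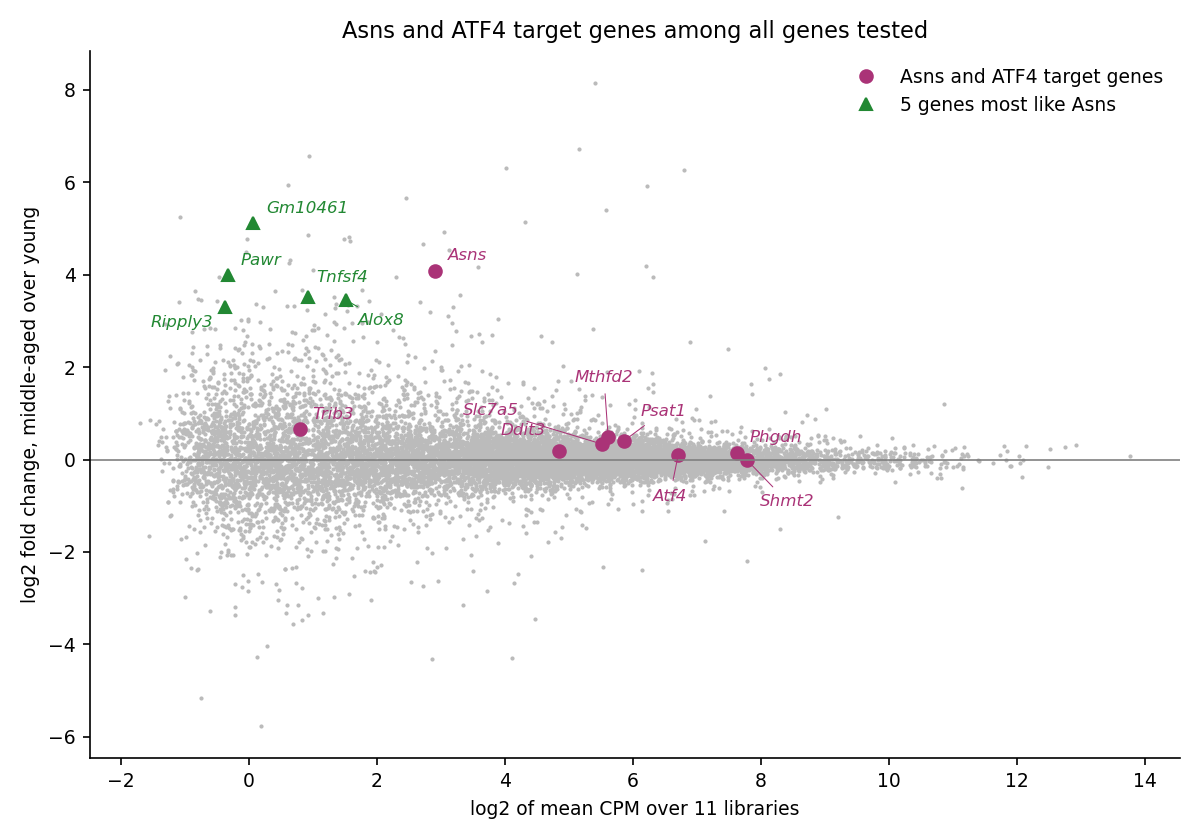
Log2 fold change, middle-aged over young, against the log2 of the mean CPM over 11 libraries, for 13129 genes tested (grey). The ATF4 group is in purple and the 5 genes most like Asns are green triangles. Asns stands at 4.08, in the upper part of the cloud with the triangles, and the other 8 purple points lie near 0.

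Total counts were 6135736 to 24394532 in young and 17066900 to 23113240 in middle-aged libraries, and mitochondrial transcripts took 0.579% to 1.43% of counts. All 13 genes that mark the sorted cells, such as Cd8a, Cd3e, Il2rb and Klra genes, were detected, with a summed level of 7211 to 12492 CPM in young and 7221 to 11592 CPM in middle-aged libraries. Marker lists of 7 other cell types had 0 genes called for age by edgeR, and none of their genes was at 0 in all libraries. Summed myeloid markers were 50.8 to 307 CPM in young and 161 to 2717 CPM in middle-aged libraries, and plasma cell markers 32.5 to 102 and 42.1 to 1005 CPM. B cell markers were 137 to 458 and 180 to 644 CPM, dendritic cell markers 122 to 263 and 104 to 189 CPM, NK cell markers 175 to 513 and 126 to 345 CPM, CD4 T cell markers 21.5 to 132 and 80.1 to 155 CPM, and erythroid and platelet markers 29.7 to 157 and 1.28 to 38.1 CPM. Most of the dendritic cell sum was Bst2, at means of 138 and 118 CPM in young and middle-aged libraries. Most of the CD4 T cell sum was Cxcr5, at 73.4 and 88.1 CPM, while Cd4 itself was at 6.97 and 7.38 CPM. The NK cell list holds NK receptor genes such as Klrb1c, and the study reports NK receptor transcripts in the CD8+ Tregs themselves. These 3 sums are therefore no measure of how many dendritic, CD4 T or NK cells were present. The highest myeloid, plasma cell and B cell sums were all in middle-aged female 2, the library with the highest Asns, Psat1, Phgdh and Mthfd2. Without it the log2 fold change of Asns was 4.01 and that of Mthfd2 0.39. Middle-aged male 1, with 19.9 CPM of Asns, also had myeloid markers above the young range, at 355 CPM, and middle-aged female 3, with 12.5 CPM, had plasma cell markers at 122 CPM and B cell markers at 586 CPM, above the young ranges. Middle-aged female 1, with 12.4 CPM of Asns, and middle-aged male 2, with 11.1 CPM, had myeloid markers at 200.4 and 161 CPM, plasma cell markers at 42.1 and 57.1 CPM and B cell markers at 241 and 276 CPM, within the young ranges. CD4 T cell markers passed the young maximum of 132 CPM in middle-aged male 2, at 134 CPM, and middle-aged female 3, at 155 CPM. The part of other cell types in the levels of Asns and the other genes was not tested.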

How the data were processed

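RNA of sorted splenic CD8+CD44+Ly49+CD122+ cells was made into libraries with a low-input SMARTer kit. The authors deposited whole-number counts per Ensembl gene, without normalization, for 54532 genes at GRCm38 coordinates. The submitters' processing notes name kallisto and mm10, while the counting settings and strandedness are not given in the sources used here. Totals were 6135736 to 24394532 counts per library, and 3 counts correspond to 0.119 to 0.542 CPM, which covers counting error only. All 11 columns were mapped by their labels, and 0 columns were left unused.

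The 10 genes and all gene lists were chosen with earlier results of these data known. Counts of all genes were analysed in R 4.3.3 with edgeR 4.0.16: filterByExpr on age (minimum count 10, minimum total count 15), TMM factors, robust quasi-likelihood fits on sex and age, and Benjamini-Hochberg adjustment over 13129 genes, called under 0.05. Sex, the age-by-sex interaction and library number were tested likewise. Each SE of an edgeR log2 fold change was derived as its absolute size divided by the square root of the quasi-likelihood F statistic. Log2 CPM used a prior count of 2. The steps were run on simulated counts that held no difference by library number, so that run does not cover such differences. Genes named are the 10 genes, the 2 largest changes in each direction per pathway list at a mean of at least 5 CPM, the 5 genes most like Asns, the genes within 500000 bases of it, and the marker genes that define the sorted cells. Slc3a2, Stc2, Nupr1, Atf3, Eif2ak2 and the listed genes at 0 counts fall outside this rule and were chosen after their values were seen. A gene that the rule names is not reported here. Alternatives were DESeq2 1.42.0, limma 3.58.1 (voom), other scaling factors and filters, terms for sex and replicate number, each sex alone, and each library left out.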

Additional observations from a re-analysis of the deposited data

Results flagged for a closer look

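Atf4 in middle-aged male 2 stood at 164 CPM, far above the 4 other middle-aged libraries, which were at 86.3 to 104 CPM, by Dixon's criterion for a single far sample. It was 1 flag among 18 groups of values examined, and chance flags about 1 in 20 groups. Without that library the log2 fold change of Atf4 with age was -0.11, in place of 0.10. Asns in it was the lowest of the middle-aged ones, at 11.1 CPM.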

How the results depend on the processing

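The number of genes called for age over all genes, 3, depended on the method: it was 112 with DESeq2, 138 with limma voom, 17 with at least 1 count in any library as the filter, 5 without a sex term, 19 with the replicate block across sexes, 6 in libraries with over 10000000 counts, and 0 in males alone and in females alone. Leaving out 1 library gave 1 to 4. Of the 10 genes followed, 1 was called, and 0 were with library size alone, with the replicate block within sex, in males alone and in females alone. Leaving out 1 library gave 0 to 1. The 5 genes called for sex became 0 to 5 when 1 library was left out. Counts of 0 for sex, interaction and the pathway lists stayed at 0 under the alternatives run.

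The log2 fold change of Asns was 3.59 to 4.72 over 22 alternatives and 3.81 to 4.43 without 1 library. Several smaller ones changed sign. In females alone Atf4 had -0.25 and Ddit3 -0.07, without middle-aged male 2 Atf4 had -0.11, without middle-aged male 1 Ddit3 had -0.0049, in males alone Psat1 had -0.08, with voom Trib3 had -0.03, and in libraries with over 10000000 counts Slc7a5 had -0.17 and Atf4 -0.0031, while Shmt2 ranged from -0.20 to 0.06 over all alternatives. The cause was not tested. Same-numbered libraries of the 2 ages correlated in their deviations at r = 0.0287 to 0.428. Those of the 2 sexes at 1 age correlated at r = 0.147 to 0.558. All of these correlations were positive, and 26.3% of all genes were called for the number. The main model leaves out such differences by number. What the number stands for is not given in the sources used here, so the replicate block was kept as an alternative. With it Trib3 had 1.27 within sex and 1.28 across sexes, and Slc7a5 0.95 and 0.87.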
